A study of Mus musculus with 24 samples.

Results

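The Pax genes encode transcription factors that share a paired DNA-binding domain, and the family has 9 members in the mouse, Pax1 to Pax9. The members were taken by name from the mouse annotation, and all 9 of them were found among 37310 annotated genes, each as 1 protein-coding gene on an autosome. The histone marks H3K4me3 and H3K27me3 were described at each gene over the promoter (4001 bp, the transcription start site, TSS, ± 2 kb) and over the gene body (the annotated gene from first to last base).

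The study profiled H3, H3K4me3 and H3K27me3 by ChIP-seq in 24 samples, 2 replicates of each antibody in each of 4 populations of gonadal supporting cells from C57BL/6 x CD1 embryos. XY and XX progenitors were sorted at E10.5 by the SF1-eGFP reporter, Sertoli cells at E13.5 from XY gonads by Sox9-CFP, and pregranulosa cells (granulosa cells in the labels) at E13.5 from XX gonads by TESM-CFP. The reporter defined each gate, so any other cell carrying the fluorescent protein was sorted with it. The cells were sorted from gonads, and the paper describes removal of the mesonephros only for a separate experiment on embryonic gonads. Each mark has 1 list of enriched regions per population, made from both replicates together, so no spread between replicates and no test between populations can be had, and no p-value is given.

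H3K4me3 is laid down by Trithorax-group enzymes around active and poised promoters, and H3K27me3 by Polycomb repressive complex 2 over silent developmental genes. A promoter with both is called bivalent. Pax genes act early in organ formation, and they fall by sequence into the groups Pax1 and Pax9, Pax2, Pax5 and Pax8, Pax3 and Pax7, and Pax4 and Pax6. Pax2 and Pax8 are the urogenital members, needed for the nephric duct, the kidney and the genital ducts that grow beside the gonad from the same intermediate mesoderm. The other members are known mainly outside the gonad, in the skeleton, muscle, neural crest, B cells, eye, brain and pancreas.

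The sequences just upstream of 4 members show the promoters on which the results turn: the urogenital Pax2 and Pax8, Pax4, which carried no H3K4me3 in any list, and Pax7, which carried it in all populations but Sertoli cells. Each run is the 250 bases before the TSS in mm9, 5′ to 3′ on the strand of the gene, with every CG dinucleotide in capitals, since CG-rich sequence is where H3K4me3 and Polycomb marks are usually found in mammals.
Pax2, chr19:44830289-44830538, plus strand: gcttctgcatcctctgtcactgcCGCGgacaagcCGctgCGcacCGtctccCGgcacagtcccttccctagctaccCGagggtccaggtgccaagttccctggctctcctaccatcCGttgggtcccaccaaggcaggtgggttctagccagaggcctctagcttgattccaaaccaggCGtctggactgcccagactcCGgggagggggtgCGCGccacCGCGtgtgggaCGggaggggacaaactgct
Pax8, chr2:24331120-24331369, minus strand: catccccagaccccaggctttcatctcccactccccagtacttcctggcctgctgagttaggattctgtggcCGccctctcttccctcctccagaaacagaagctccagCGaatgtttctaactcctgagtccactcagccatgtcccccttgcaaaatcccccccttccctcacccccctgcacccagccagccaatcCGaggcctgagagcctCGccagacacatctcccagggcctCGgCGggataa
Pax4, chr6:28399354-28399603, minus strand: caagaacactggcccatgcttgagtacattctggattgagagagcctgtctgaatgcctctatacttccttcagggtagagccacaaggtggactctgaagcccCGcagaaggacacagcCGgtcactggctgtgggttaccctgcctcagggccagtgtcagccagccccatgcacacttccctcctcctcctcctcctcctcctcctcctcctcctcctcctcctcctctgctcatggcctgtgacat
Pax7, chr4:139389446-139389695, minus strand: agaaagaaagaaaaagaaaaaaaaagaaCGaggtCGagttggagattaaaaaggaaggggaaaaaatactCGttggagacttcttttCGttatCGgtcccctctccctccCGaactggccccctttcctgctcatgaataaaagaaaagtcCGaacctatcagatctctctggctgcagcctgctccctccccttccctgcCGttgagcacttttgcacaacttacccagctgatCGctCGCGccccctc
These upstream bases held 15 CG dinucleotides at Pax2, 11 at Pax7, 6 at Pax8 and 2 at Pax4, beside a median of 9 over 21413 autosomal protein-coding genes. At least 1 CG stood in 92.6% of all those windows, and 83.5% of them held as many as Pax4 or more.

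In the wider window of TSS ± 500 bases, Pax4 stood apart from the other 8 members. It held 3 CG dinucleotides, an observed to expected ratio of 0.0517, and 97.3% of all autosomal protein-coding genes had at least as many. Pax8 was next with 18 and a ratio of 0.221. The remaining 7 held between 41 (Pax1 and Pax5) and 71 (Pax2), with ratios from 0.522 to 0.694, near or above the median over all genes of 42 CG and 0.559. The G+C content did not separate Pax4 in the same way, at 48.7% beside 50.4% at Pax1 and a median over all genes of 55%.

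H3K27me3 covered the promoter window of every Pax gene in every population, from end to end. All 4001 bases lay inside a region in 36 of 36 cases, the 9 genes in the 4 lists. Over the 21418 autosomal protein-coding genes, H3K27me3 touched the promoter in 23.6% in XY progenitors, 22.8% in XX progenitors, 24.2% in Sertoli cells and 22.1% in pregranulosa cells. It filled the whole window in 15%, 16.3%, 17.3% and 16.3% of them in the same order. The count of 9 of 9 is therefore well above the share over all genes, and it is a description of 9 related genes, not a test.

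H3K4me3 was present at 8 of the 9 promoters in XY progenitor, XX progenitor and pregranulosa cells, and at 7 in Sertoli cells. It was found at 64.8%, 66.7%, 65.5% and 67% of all promoters in XY progenitor, XX progenitor, Sertoli and pregranulosa cells. With H3K27me3 at all 9, the bivalent members numbered 8, 8, 7 and 8, beside 20.9%, 21.4%, 19.2% and 19.6% of all promoters. In XY progenitors the counts with H3K4me3 and with both marks were 5 in place of 8 with the window at TSS ± 1 kb, and also with the widest 75% of regions alone. No Pax promoter carried H3K4me3 alone in any population. Pax4 carried H3K27me3 alone in all 4, and Pax7 in Sertoli cells.

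The stretch under H3K4me3 was narrower at most Pax promoters than at bivalent promoters in general, except in XX progenitors. Its median over the marked Pax promoters was 1001 bp in XY progenitors, 2882 bp in XX progenitors, 1577 bp in Sertoli cells and 1819.5 bp in pregranulosa cells. Over all autosomal bivalent promoters the medians were 1998, 2631, 2175 and 2415 bp. The XY value is that of a single peak window of 1001 bp, the width of 48.2% of all regions in that list. The XY list came from 10162534 tags and the XX list from 49254553, and the part of depth in this difference was not tested.

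**Figure D1:**
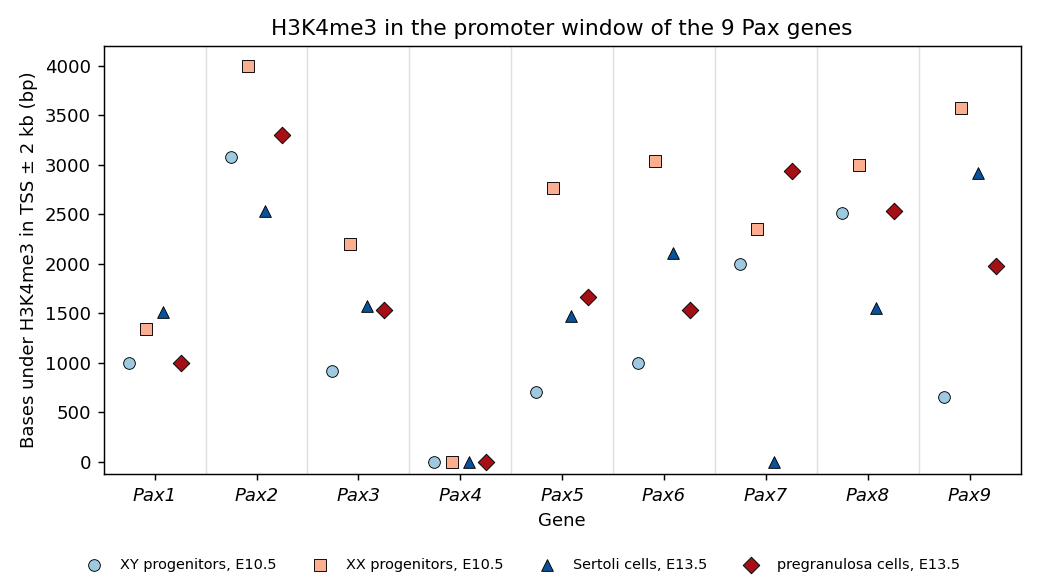
Bases under H3K4me3 (y axis, bp of the 4001 bp window of TSS ± 2 kb) at each Pax gene (x axis), with 1 point for the pooled list of each population. Pax4 lies at 0 in all 4 populations and Pax7 at 0 in Sertoli cells, while Pax2 reaches 4001 bp in XX progenitors.

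Pax2 (ENSMUSG00000004231.7, chr19:44830539-44912758, plus strand) had the broadest H3K4me3 of the family at its promoter in 3 of the 4 lists. The mark took 3079 bp of the window in XY progenitors, 4001 bp in XX progenitors, 2530 bp in Sertoli cells and 3296 bp in pregranulosa cells. In Sertoli cells Pax9, with 2918 bp, was broader. Both E13.5 lists covered less than both E10.5 lists except that pregranulosa cells exceeded XY progenitors. The XX progenitor region ran from -10335 to 6778 bp around the TSS, 17114 bp in all, and ranked 17 by width among the 41786 H3K4me3 regions of that list. In Sertoli cells the region was 2862 bp wide, from -529 to 2332 bp.

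The H3K27me3 region over the Pax2 TSS was far longer and reached mainly upstream. It ran from -47021 to 12647 bp in XY progenitors, from -42619 to 13233 bp in XX progenitors and from -48152 to 19885 bp in Sertoli cells. In pregranulosa cells it ran from -132034 to 17977 bp, 150012 bp in all. The pregranulosa list held no overlapping peaks as received, so its widths and breaks may not compare directly with those of the other lists. Upstream of short breaks, the other lists had further stretches, from -96924 to -51584 bp in XY progenitors, from -89489 to -50855 bp in XX progenitors and from -132076 to -50094 bp in Sertoli cells. Among these stretches, the outer end in pregranulosa cells was close to that in Sertoli cells and beyond those in both progenitor lists. Regions lying wholly further upstream than the searched span were not looked for, so the progenitor lists may hold more there. No other protein-coding TSS lay inside any of the 4 regions over the Pax2 TSS.

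Within the Pax2 gene, H3K27me3 covered 36.7% of the body in XY progenitors and 39.6% in XX progenitors. At E13.5 it covered 85.2% in Sertoli cells and 58.9% in pregranulosa cells. Both progenitor lists left the middle of the gene bare, from about the end of the promoter region to stretches near its 3′ end. These ran from 62457 to 70088 bp and from 72293 to 88895 bp in XY progenitors and from 62914 to 92804 bp in XX progenitors, past the end of the gene. Sertoli cells filled most of this gap with stretches from 25052 to 40173 bp and from 47190 to 98562 bp. Pregranulosa cells filled less of it, with 2 stretches of 5001 bp that began at 26766 and 51866 bp and held no exonic base. Without those narrow stretches, as when each list is reduced to its widest 75% of regions, the difference between XX progenitor and pregranulosa cells shrank from 19.4 to 7.19 percentage points, while that between XY progenitor and Sertoli cells stayed at 48.4.

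H3K4me3 at Pax2 was not confined to the start of the gene. Bases at 34308 to 34744 bp and at 79772 to 81106 bp inside the gene, and at -22122 to -21122 bp and -15344 to -13327 bp upstream of it, carried the mark in all 4 lists. The stretch near the 3′ end spans 1335 bp, of which 1205 are exonic to Pax2, and it contains the annotated start of the non-coding gene 1700039E22Rik. The upstream pair had no annotated transcript start of any gene closer than that of Pax2 itself, and both lay inside the H3K27me3 region in all 4 populations.

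**Figure D2:**
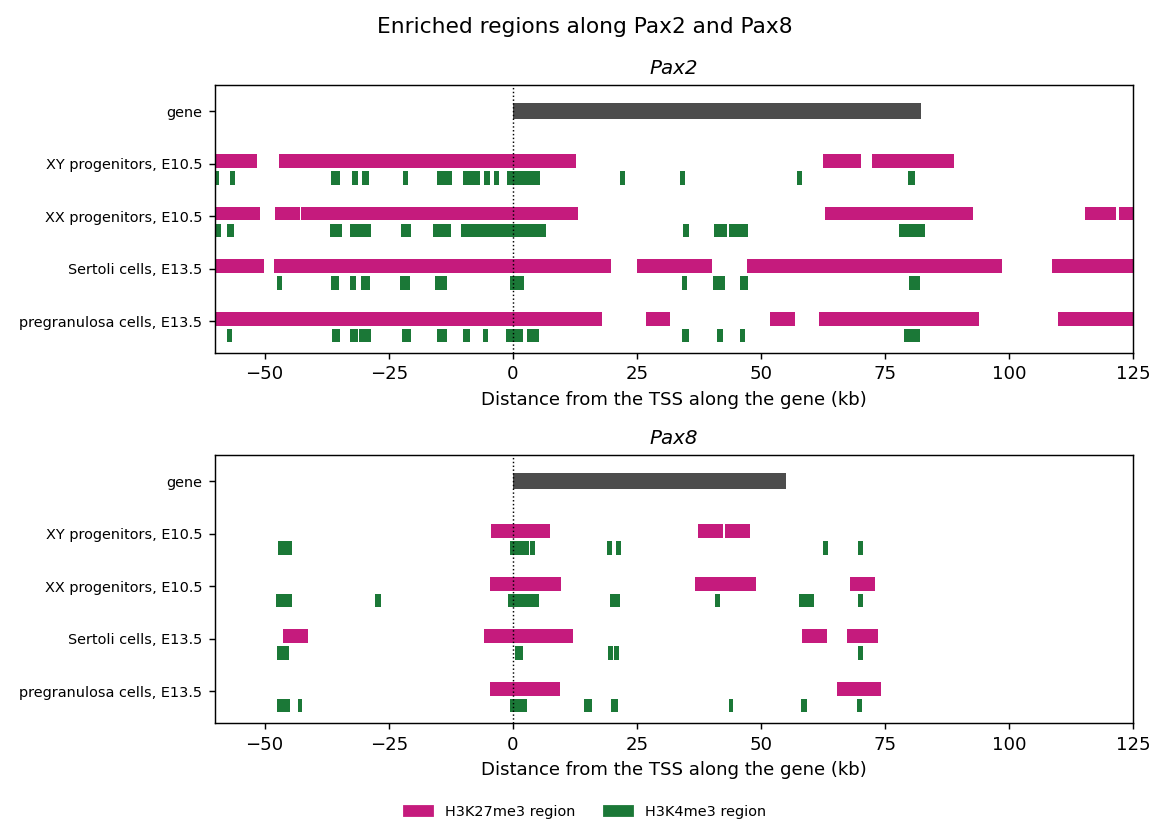
Regions of H3K27me3 (magenta) and H3K4me3 (green) in each population along Pax2 (top) and Pax8 (bottom), drawn by distance from the TSS (x axis, kb), with the annotated gene as a grey bar. Pax2 lies in a long H3K27me3 region that fills more of the gene at E13.5, while at Pax8 the mark stays near the TSS and the stretch inside the gene is seen only at E10.5.

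Pax8 (ENSMUSG00000026976.8, chr2:24276071-24331119, minus strand), which acts with Pax2 in the kidney and alone in the thyroid, had the same marks at its promoter and a different layout along the gene. H3K4me3 covered 2512 bp of the promoter window in XY progenitors, 2995 bp in XX progenitors, 1551 bp in Sertoli cells and 2531 bp in pregranulosa cells. In Sertoli cells the region began 450 bp after the TSS and ended at 2086 bp, and the TSS base itself was covered in the other 3 lists. The H3K27me3 region over the TSS was 11878 bp wide in XY progenitors, 14182 bp in XX progenitors, 17874 bp in Sertoli cells and 14196 bp in pregranulosa cells. Only Pax4, at E10.5 in both sexes and in Sertoli cells, had a narrower one, and in pregranulosa cells Pax8 had the narrowest of the 9.

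Pax8 was the member with the lowest cover of the gene body at E13.5, and 1 of 2 where cover was lower at E13.5 than at E10.5. H3K27me3 covered 31.8% of the body in XY progenitors and 39.8% in XX progenitors, then 21.9% in Sertoli cells and 17.4% in pregranulosa cells. Cover thus differed by -9.95 percentage points in the XY pair of lists and -22.3 in the XX pair. Both E10.5 lists had a further stretch deep in the gene. XY progenitors had 2 adjoining peaks there, from 37369 to 42369 bp (chr2:24288750-24293750) and from 42707 to 47707 bp (chr2:24283412-24288412). XX progenitors had 1 region of 12194 bp from 36741 to 48934 bp (chr2:24282185-24294378), of which 436 bp were exonic to Pax8. Neither E13.5 list had any H3K27me3 region inside the gene apart from the one over the TSS.

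The XY peaks inside Pax8 had 5001 bp each, 1 peak window, the width of 35.6% of the regions in that list, and they drop out when each list is reduced to its widest 75% of regions, where position decides among regions of equal width. Pax8 then had 13.7% cover in XY progenitors, and the XY difference turned to 8.22 points in the other direction, whereas the XX difference stayed at -22.3. No annotated transcript start of Pax8 lay inside the stretch. H3K4me3 bases shared by all 4 lists inside Pax8 lay at 450 to 2086 bp, 19746 to 19973 bp and 20759 to 21159 bp, the last 2 without an exonic base.

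Pax5 (ENSMUSG00000014030.9, chr4:44544017-44724318, minus strand), the B-cell commitment factor and the remaining relative of Pax2 and Pax8, had the lowest gene body cover at E10.5. It was 20.6% in XY progenitors, 25.9% in XX progenitors, 66.7% in Sertoli cells and 35.7% in pregranulosa cells. Pax5 is the longest gene of the family at 180302 bp, and the number of H3K27me3 regions touching it was 4, 4, 9 and 5 in that order. The stretches of Sertoli cells between 65184 and 140510 bp had no counterpart in the other 3 lists. H3K4me3 at Pax5 did not reach the annotated TSS in 3 lists, with regions ending at -1298 bp in XY progenitors, -529 bp in Sertoli cells and -342 bp in pregranulosa cells. It covered the TSS in XX progenitors. The annotated starts further in, at 7440 and 8033 bp, were under H3K4me3 in all 4 lists. Deeper stretches shared by all 4 lay at 46516 to 47532 bp, over the annotated start of the non-coding gene Gm12462, and at 152394 to 153694 bp, and neither held an exonic base of Pax5.

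Pax7 (ENSMUSG00000028736.6, chr4:139292977-139389445, minus strand), which marks muscle satellite cells and their precursors, was the only member whose promoter class differed between populations at TSS ± 2 kb. With TSS ± 1 kb, Pax3, Pax5 and Pax9 differed too, since their H3K4me3 in XY progenitors lay outside that window. At Pax7 and TSS ± 2 kb, the mark was missing in Sertoli cells alone. H3K4me3 covered 2002 bp in XY progenitors, 2353 bp in XX progenitors, 0 bp in Sertoli cells and 2941 bp in pregranulosa cells. The absence in Sertoli cells held for the whole gene, which was touched by 0 H3K4me3 regions there, against 4 in XY progenitors, 8 in XX progenitors and 3 in pregranulosa cells. An absent region means that no peak passed the thresholds of the caller, at 31104760 H3K4me3 tags in Sertoli cells. The XY progenitor value came from 2 separate regions of 1 window each, from -919 to 81 bp and from 501 to 1501 bp, and neither was kept among the widest 75% of regions, where Pax7 then had no H3K4me3 to lose in the XY pair of lists, while the XX region was 2353 bp wide and the pregranulosa region 3225 bp. Over all autosomal genes that were bivalent at E10.5 and kept H3K27me3, 4.4% had lost H3K4me3 in the XY pair of lists and 2.06% in the XX pair, against 1 of 8 and 0 of 8 Pax genes.

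H3K27me3 at Pax7 spread over most of the gene in all populations, with 84.3% of the body in XY progenitors, 82.8% in XX progenitors, 98.6% in Sertoli cells and 85.6% in pregranulosa cells. Its region over the TSS reached 54865 and 55801 bp into the gene at E10.5 in XY and XX cells. At E13.5 it reached 82358 bp in Sertoli cells and 82547 bp in pregranulosa cells. Most of this added reach was the closing of a short gap, since both progenitor lists had a second region from 57062 bp (XY) or 57185 bp (XX) onward.

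**Figure D3:**
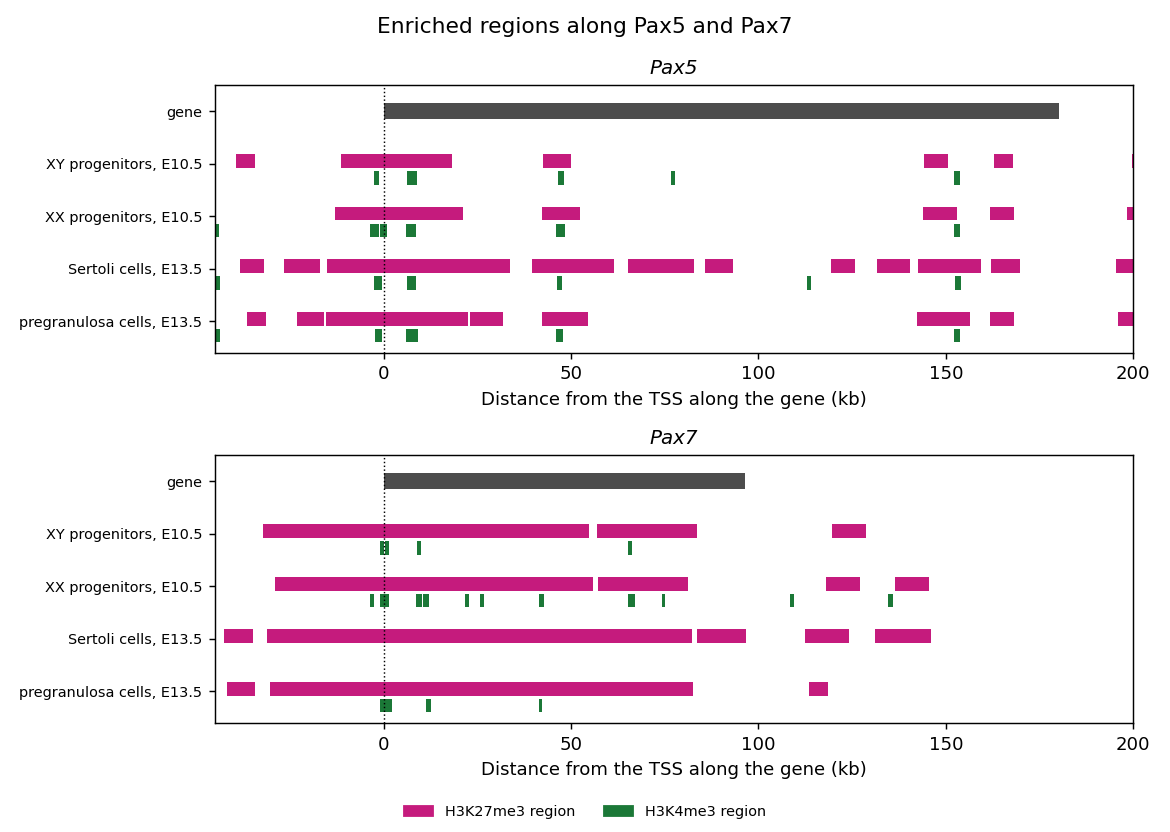
Regions of H3K27me3 (magenta) and H3K4me3 (green) along Pax5 (top) and Pax7 (bottom) by distance from the TSS (x axis, kb), 1 pair of rows per population, with the gene as a grey bar. Sertoli cells have 9 H3K27me3 regions along Pax5 against 4 or 5 in the others, and no H3K4me3 region at the start of Pax7.

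Pax3 (ENSMUSG00000004872.9, chr1:78097842-78193709, minus strand), a neural crest and muscle progenitor factor, lay wholly under H3K27me3 at E10.5. The cover of the body was 100% in both progenitor populations, 93.7% in Sertoli cells and 92.5% in pregranulosa cells. A single region of 137523 bp spanned the gene in XY progenitors, rank 4 by width among the 9693 of that list. It spanned 126735 bp in XX progenitors, and at E13.5 it ended at 71816 bp (Sertoli cells) or 71680 bp (pregranulosa cells), with separate regions behind it. In Sertoli cells the next region ran from 71820 to 80692 bp. That break is only a few bases, left open because only overlapping peaks were joined. Pax3 was thus the second member with lower cover at E13.5, by -6.31 points in the XY pair and -7.46 in the XX pair. H3K4me3 covered 917, 2196, 1577 and 1528 bp of its promoter in XY progenitor, XX progenitor, Sertoli and pregranulosa cells, and in XY progenitors it began only 1084 bp after the TSS. A further H3K4me3 stretch from -21542 to -18709 bp, 2834 bp wide, was present in all 4 lists and contained no annotated start.

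Pax1 and Pax9 act together in the sclerotome, the source of the vertebrae, and in the pharyngeal pouches. Pax1 (ENSMUSG00000037034.8, chr2:147187661-147219031, plus strand) had H3K4me3 over 1001, 1339, 1513 and 1001 bp of its promoter in XY progenitor, XX progenitor, Sertoli and pregranulosa cells. These are the lowest values of any marked member in XX progenitor and pregranulosa cells. The start of its longest coding sequence lies 3069 bp further in and had H3K4me3 in XX progenitor and Sertoli cells. Pax9 (ENSMUSG00000001497.11, chr12:57792754-57813809, plus strand) had 657, 3568, 2918 and 1980 bp, the widest spread among the marked promoters apart from Pax7.

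Gene body cover was higher at E13.5 at both. At Pax1 it was 59.6% and 63% in XY and XX progenitors, then 71.2% in Sertoli cells and 71% in pregranulosa cells. For Pax9 the values were 76.4% and 82.3%, then 100% and 99.4%. Pax9 had the 2 starts at 3872 and 3962 bp under H3K4me3 in every list, whereas its first TSS lacked it in XY progenitors.

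Pax4 and Pax6 both act in pancreatic islets, and Pax6 is the eye factor of the family. Pax6 (ENSMUSG00000027168.12, chr2:105509053-105543317, plus strand) had the most annotated starts, 29, and all were under H3K27me3 in all 4 lists. H3K4me3 covered 1001, 3038, 2106 and 1536 bp of the promoter window in XY progenitor, XX progenitor, Sertoli and pregranulosa cells, and in the last it began 109 bp after the TSS. A broader shared stretch lay further in, from 4964 to 7824 bp, where 9 annotated starts were under H3K4me3 in every population. Gene body cover by H3K27me3 was the most even of the family, at 76.1%, 78%, 81.5% and 81.4%.

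Pax4 (ENSMUSG00000029706.8, chr6:28392334-28399353, minus strand) is the shortest gene of the family at 7020 bp. None of its 4 annotated starts was under H3K4me3 in any list, and all 4 were under H3K27me3 in each. Its region over the TSS spanned 10176 bp in XY progenitors, 11521 bp in XX progenitors, 15213 bp in Sertoli cells and 17893 bp in pregranulosa cells. Gene body cover was 58.7%, 45.3%, 72.1% and 100%. The lack of H3K4me3 coincided with the poorest CG content of the family, described above, and a link between them was not tested.

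Of all annotated transcript starts of the family, nearly all were under H3K27me3 and fewer under H3K4me3. Of 63 distinct start bases, 60 lay under H3K27me3 in each progenitor list and 61 in each E13.5 list. Pax6 supplies 29 of the 63, and without it the counts were 31 of 34 and 32 of 34. Over 67112 starts of autosomal protein-coding genes the shares were 17.1% and 17.2% in XY and XX progenitors, 17.8% for Sertoli and 16.2% for pregranulosa cells. The exceptions at E13.5 were the 2 innermost starts of Pax8, at 29699 and 52517 bp. H3K4me3 lay over 31 of them in XY progenitors, 40 in XX progenitors, 36 in Sertoli cells and 32 in pregranulosa cells. Without Pax6 these were 17, 25, 16 and 22 of 34, and over all starts 54.8%, 58.4%, 56.9% and 58.3%. Among the first annotated TSSs of the 9 genes, 5, 8, 5 and 6 were under H3K4me3 in the same order, and all 9 under H3K27me3 in each list.

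Taking the gene bodies together, at least 50% of the body lay under H3K27me3 at 6 Pax genes in XY progenitors, 5 in XX progenitors, 8 in Sertoli cells and 7 in pregranulosa cells. Over all autosomal protein-coding genes this held for 8%, 8.02%, 11.4% and 8.71%. The median cover of the 9 bodies was 59.6%, 63%, 81.5% and 81.4%, beside 19.3%, 20.1%, 39.3% and 26.9% over the genes with promoter H3K27me3 in the same list. Pax8 was the only member under 50% in every list.

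From E10.5 to E13.5 the cover was higher at 7 members and lower at Pax3 and Pax8, in both sexes. In the XY pair of lists, 6 members were higher by at least 10 percentage points: Pax1 by 11.6, Pax2 by 48.4, Pax5 by 46.2, Pax7 by 14.2, Pax9 by 23.6, and Pax4 from 58.7% to 72.1%. Among 3927 autosomal genes with promoter H3K27me3 at both stages, 29% were higher by as much and 5.6% were lower by as much. In the XX pair 3 members were higher by at least 10 points, Pax2 by 19.4, Pax4 by 54.7 and Pax9 by 17.1, and Pax8 was lower. The shares among 3991 genes were 15.1% and 6.56%. The median difference over the family was that of Pax4 in the XY pair and 7.96 points, that of Pax1, in the XX pair, beside 0.98 and 0.0774 points over those genes. The XY list came from 6470151 H3K27me3 tags and the Sertoli list from 44446456, the XX list from 33185400, and the pregranulosa depth is unknown. The part of depth in these differences was not tested. With lists reduced to an equal number of regions, which does not make their depth equal, the XY count stayed at 6 and the XX count was 2.

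**Figure D4:**
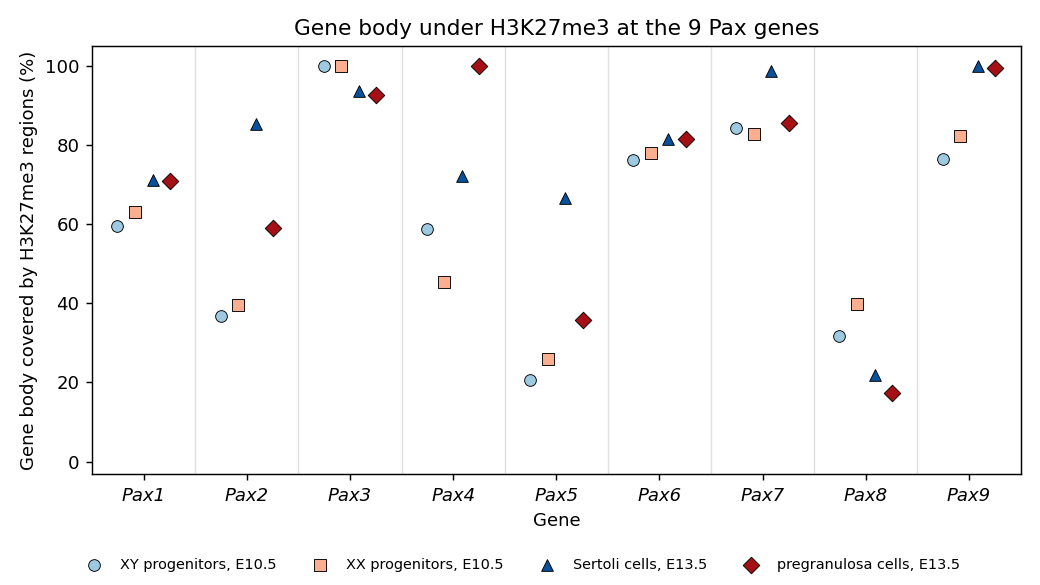
Percent of the gene body covered by H3K27me3 regions (y axis) at each Pax gene (x axis), with 1 point for the pooled list of each population. Cover is higher at E13.5 (dark points) than at E10.5 (light points) at 7 genes and lower at Pax3 and Pax8. The largest differences are at Pax4 in pregranulosa cells and at Pax2 and Pax5 in Sertoli cells.

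No Pax promoter lost H3K27me3 between the stages in either sex. Among autosomal promoters with the mark at E10.5, 22.4% lacked it in the XY pair of lists at E13.5 and 18.5% in the XX pair. The region over the TSS was at least 30 kb wide at 5 Pax genes in XY progenitors and at 7 in each of the other populations. Among TSSs inside an H3K27me3 region, 7.15% in XY progenitors, 7.11% in XX progenitors, 14.6% in Sertoli cells and 11.1% in pregranulosa cells lay in one that wide. Pax4 and Pax8 were below this width in all 4 lists. In none of the 36 cases did the region contain the TSS of another protein-coding gene.

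The Eya and Dach genes and Six2 to Six6 work with Pax genes in a network that acts in the eye, ear, muscle and kidney. Of these 11 genes, H3K27me3 was present at the promoter of 7 in XY progenitors, 8 in XX progenitors, 8 in Sertoli cells and 9 in pregranulosa cells. Both marks were present at 6, 8, 6 and 8, beside 20.9%, 21.4%, 19.2% and 19.6% of all autosomal promoters. Six5 and Eya3 had H3K4me3 alone in all 4 lists, a class with no Pax member. Six3, a forebrain and eye factor, matched Pax7 in lacking H3K4me3 in Sertoli cells (0 bp) and having it in pregranulosa cells (978 bp), but it lacked the mark in XY progenitors as well. Dach2, on chromosome X, had H3K27me3 in XX progenitor and pregranulosa cells (3680 and 2907 bp) and none in the 2 XY populations. It thus adds to the H3K27me3 and both-mark counts of the XX populations only, and the shares over all genes are autosomal.

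The urogenital list holds 14 genes of the nephric duct, kidney and early gonad. It had H3K27me3 at 13 promoters in each progenitor population, 11 in Sertoli cells and 8 in pregranulosa cells. Over all autosomal protein-coding genes the share was 22.1% to 24.2% in the 4 lists. Both marks were present in all 4 lists at 8 of the 14, among them the kidney and duct regulators Lhx1, Gata3, Osr1, Sall1 and Wnt9b, and they were also present in all 4 at Pax2 and Pax8. The share of all autosomal promoters with both marks in all 4 lists is not given here. It can be at most 19.2%, the share in Sertoli cells. The genes without H3K27me3 in both E13.5 lists were Wt1, Gata4 and Nr5a1, which encode factors of the gonadal somatic cells, whereas Lhx9 and Emx2 had H3K4me3 alone in pregranulosa cells and both marks in Sertoli cells. Emx2 had only 525 bp of H3K27me3 in the Sertoli window. Cdh16, a cadherin of the kidney and duct epithelium, had H3K27me3 in Sertoli cells (1190 bp) and neither mark in pregranulosa cells.

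**Figure D5:**
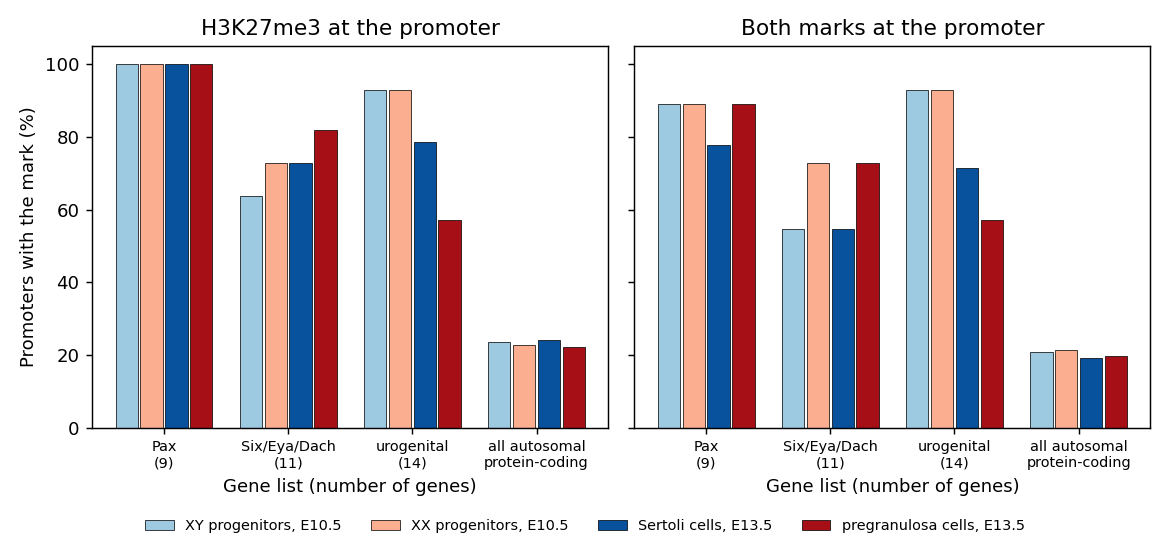
Percent of promoters (y axis) with H3K27me3 (left) and with both marks (right) in the 9 Pax genes, the 11 Six2 to Six6, Eya and Dach genes, the 14 urogenital genes and all autosomal protein-coding genes (x axis), 1 bar per population. The Pax bars for H3K27me3 all reach the top, while those of the urogenital list are lower at E13.5 (11 and 8 of 14 genes).

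By the layout of both marks within 10 kb of the TSS, the genes most like Pax2 were the transcription factor genes Ebf3, Prdm16 and Tbx18. Likeness was the mean over the 8 lists of the shared share of covered 100 bp bins (Jaccard index), and it was 0.786, 0.781 and 0.779 for these, with a median of 0.163 over 21409 genes. For Pax8 they were the adrenergic receptor gene Adra1a (0.801), the microtubule protein gene Mtap6 (0.773) and the potassium channel gene Kcna1 (0.77), with a median of 0.186. Pax2 and Pax8 themselves had an index of 0.558, lower than that of Pax2 with Pax9 (0.665), the highest within the family. Relatives by sequence were not the closest by layout in every case: it was 0.63 for Pax1 and Pax9, 0.58 for Pax3 and Pax7, 0.548 for Pax2 and Pax5, 0.38 for Pax5 and Pax8 and 0.344 for Pax4 and Pax6. Pax4, with no H3K4me3 region within 10 kb of its TSS, also had 0.344 with Pax1, Pax2, Pax3, Pax5 and Pax9. Its value with Pax6 is thus not particular to that pair. A list where neither gene had a covered bin counted as full likeness. H3K27me3 filled nearly all of the 10 kb on either side of the TSS in every list at Pax1, Pax2, Pax3, Pax5, Pax6, Pax7 and Pax9. Differences in the index among these members thus reflect H3K4me3 almost alone. At Pax4 and Pax8 the H3K27me3 regions fell short of that span on at least 1 side.

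The marker genes of the sorted populations differed between the E13.5 lists. None of 5 Sertoli markers had promoter H3K27me3 in Sertoli cells and all 5 had it in pregranulosa cells. Of 6 pregranulosa markers, 6 had it in Sertoli cells and 3 in pregranulosa cells, where Foxl2, Fst and Irx3 had both marks. The 5 gonadal progenitor markers (Nr5a1, Gata4, Wt1, Lhx9 and Emx2) went the other way in the progenitors. All 5 had both marks in XY and XX progenitors, while H3K27me3 was at 2 in Sertoli cells and 0 in pregranulosa cells. Among markers of other cells the gates could hold, Ddx4 (germ cells), Pecam1 and Tek (endothelium), and Ptprc and Hbb-b1 (blood) had neither mark in any list, and the endothelial Kdr and the blood gene Tal1 had both marks in all 4. Others went the other way. Dazl (germ cells) and Star (fetal Leydig cells) had H3K4me3 alone in all 4 lists, and Hsd3b1 (fetal Leydig cells) in all but XY progenitors. Cyp11a1 (fetal Leydig cells) had it alone in XX progenitors, and Dppa3 (germ cells) and Cdh5 (endothelium) in pregranulosa cells. Dppa3 had both marks in XX progenitors and Sertoli cells. Pou5f1 (germ cells) had both marks in Sertoli cells and H3K27me3 alone in the other lists. Sertoli cells thus had H3K4me3 at 3 of 4 germ cell promoters, the most of the 4 lists. H3K4me3 was found at 1 to 3 of 4 germ cell, 1 to 2 of 4 endothelial, 1 of 3 blood and 1 to 3 of 3 fetal Leydig cell promoters over the 4 lists, beside the share of all promoters given above. Of the 4 mesonephric tubule and duct genes, H3K4me3 was present at 4 in XY progenitors and 3 in each of the others, and H3K27me3 at 3, 3, 4 and 2 in XY progenitors, XX progenitors, Sertoli and pregranulosa cells. Lhx1 and Gata3 had both marks in every list, Cdh16 had H3K4me3 alone in XY progenitors, and Emx2 is also among the gonadal progenitor markers. The part of other cell types in the Pax results was not tested. A bivalent call in a pooled list can come from both marks in the same cells or from different cells, and which of these held at the Pax genes was not tested.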

How the data were processed

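H3, H3K4me3 and H3K27me3 ChIP-seq was done by the authors on 24 samples, and the reads were processed with Trim Galore, Bowtie, SAMtools and HOMER on mm9, with H3 as input. The deposited files are 8 peak lists, 1 per mark and population, from both replicates pooled. Their positions are bases on mm9 (NCBIM37), and the score column that the authors deposited is constant, so no level of enrichment was used. Per the file headers, the histone style of the caller was used with peak sizes of 5000 bp (H3K27me3) and 1000 bp (H3K4me3). A peak had to exceed both input and its surroundings 4-fold, with 0.0001 as the Poisson limit against input. Tags ranged from 6470151 to 49254553 in the 6 lists with a header, and depth is unknown for pregranulosa cells. No peak passed the end of an mm9 chromosome.

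Overlapping peaks of a list were joined into regions. For H3K27me3, 36469, 74001 and 74154 peaks in the XY progenitor, XX progenitor and Sertoli lists became 9693, 9309 and 13313 regions. The pregranulosa list held 12609 peaks and gave 12609 regions. Whether its peaks had been joined earlier, and how, is unknown, so its widths, breaks and region counts may not compare directly with the others. Gene models came from GENCODE M1, with the TSS as the first base of the gene. A promoter (TSS ± 2 kb) was called marked with at least 1 bp covered. Printed positions count from 1, and positions relative to the TSS count the TSS as 0 and run along the gene. Upstream sequences were read from the mm9 genome. All 9 Pax genes are described. The compared lists hold 11 and 14 genes, and 1 further gene planned for each is not reported here. Further genes were named by rule: genes sharing an H3K27me3 region with a Pax TSS, listed genes whose class differs between Sertoli and pregranulosa cells, and the 3 genes most like Pax2 and Pax8. Six5, Eya3 and the urogenital genes that differ from these were named after their values were seen. The members and lists were chosen with earlier results of these data known. Covered bases were tested on simulated data and matched in 200 of 200 windows. The alternatives are given in the closing section. With 1 pooled list per mark and population, no test was run. Python 3.11.15, NumPy 2.4.6 and matplotlib 3.10.9 were used.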

Additional observations from a re-analysis of the deposited data

Results flagged for a closer look

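H3K4me3 at the Pax7 promoter went opposite ways in the 2 sexes from E10.5 to E13.5. The covered length differed by -2002 bp in the XY pair of lists (2002 to 0 bp) and by 588 bp in the XX pair (2353 to 2941 bp). With 1 pooled list per population the difference was not tested, and the XY progenitor value came from 2 regions of 1 peak window each. Neither region was kept among the widest 75% of regions, and the XY loss of H3K4me3 then no longer held.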

How the results depend on the processing

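Each count was recomputed with at least 500 bp covered, TSS ± 1 kb, the widest 75% of regions, an equal number of regions per mark, regions within 1 kb joined, the TSS of the longest coding sequence, any annotated start, and, chosen after seeing the data, regions within 5 kb joined. Of 396 values under these alternatives for 52 counts, 380 stayed within 1.5 times the reported count and 341 equalled it. In the XY progenitor lists 48.2% of H3K4me3 and 35.6% of H3K27me3 regions have the width of 1 peak window, and which of these the widest 75% keeps is set by position, not width. H3K27me3 stayed at 9 of 9 promoters throughout. H3K4me3, and with it both marks, was present at 5 Pax promoters in XY progenitor cells with TSS ± 1 kb and with the widest 75% of regions. Promoters without H3K4me3 at E10.5 and with it at E13.5 in the XY pair then numbered 3 and 2, and 1 with the TSS of the longest coding sequence, against 0. With the widest 75% of regions the XY pair had 0 losses of H3K4me3 in place of 1 (Pax7), and the XX pair had 1 loss in place of 0, as it had with an equal number of regions. At a threshold of 25% of the body, 9 genes passed in XX progenitor cells in place of 5. Genes with cover lower by at least 10 points in the XY pair numbered 1 in place of 0 with regions joined within 1 kb or 5 kb and without the first 2 kb of the body, and in the XX pair 2 in place of 1 with the widest 75% or an equal number of regions. The Pax8 difference in the XY pair turned from -9.95 to 8.22 points with the widest 75% of regions, which leaves out the 2 narrow peaks inside the gene. No paired analysis was possible because each list pools both replicates, and for the same reason no replicate could be left out. The XY progenitor lists had the fewest tags for each mark among the 6 lists that give a tag count, and its effect on absent marks was not tested.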
